A study of Mus musculus with 9 samples.

Results

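The 35 genes described here encode the proteins that take up glucose, break it down to lactate and set the pace of that flow (22 genes), and the proteins that sense oxygen or are made in larger amounts when oxygen is short (13 genes). They were chosen by symbol, as a list, and found through their Ensembl identifiers among the 22262 genes with a count. All 35 were counted. All 35 reached 4 CPM (counts divided by the library total and scaled to a common total) in at least 1 library, the limit set for testing. Levels given in CPM below are divided by the library's normalized total instead. RNA came from a piece of the upper colon of 9 female wild-type C57BL/6N mice, which the study's methods give as 12 months old and as kept in their housing from weaning. The 4 WT_SE mice (numbers 1, 2, 3 and 5) lived in the standard environment, in plain shared cages. The 5 WT_EE mice (numbers 1 to 5) lived in the enriched environment, in larger cages shared by more mice, with running wheels, tunnels and changing objects. Mice of 1 cage share that cage, and the labels do not say which mice did.

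Glycolysis turns glucose into pyruvate in the cytosol. In the colon the epithelium can burn bacterial fatty acids in mitochondria, while smooth muscle, immune cells and epithelium all run glycolysis to some extent. The surface epithelium lies next to an almost oxygen-free lumen and is normally low in oxygen. When oxygen is sufficient, prolyl hydroxylases (Egln1, Egln3) mark the alpha subunits Hif1a and Epas1, the Vhl protein binds the marked subunits, and they are degraded. When oxygen is short, they persist, pair with Arnt and switch on genes with an ACGTG or GCGTG core in their control regions, many glycolytic enzymes and Egln3 itself among them. Much of this control acts on the Hif1a protein, which RNA does not measure.

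The promoter windows of 4 of these genes are shown because the comparison between environments turned on Egln3, Hif1a and Tpi1, and because Ldha was the most highly counted. Each runs from 250 bases before to 50 bases after the start site that RefSeq gives on GRCm38.p6, 5′ to 3′ on the gene's own strand. Capitals mark ACGTG or GCGTG, the core of a HIF response element, read on either strand.
Egln3 (chr12:54203825-54204124, minus strand): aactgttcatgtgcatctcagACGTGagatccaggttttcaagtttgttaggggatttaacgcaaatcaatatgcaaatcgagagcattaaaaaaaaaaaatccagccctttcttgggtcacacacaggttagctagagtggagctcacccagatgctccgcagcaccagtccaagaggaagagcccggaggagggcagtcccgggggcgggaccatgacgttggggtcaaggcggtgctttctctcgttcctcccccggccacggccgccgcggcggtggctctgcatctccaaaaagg
Hif1a (chr12:73907617-73907916, plus strand): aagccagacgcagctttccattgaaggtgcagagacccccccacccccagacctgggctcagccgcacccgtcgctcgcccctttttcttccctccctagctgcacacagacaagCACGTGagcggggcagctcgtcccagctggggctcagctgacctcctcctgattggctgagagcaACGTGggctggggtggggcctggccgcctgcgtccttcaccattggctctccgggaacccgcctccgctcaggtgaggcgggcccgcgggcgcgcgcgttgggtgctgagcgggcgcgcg
Tpi1 (chr6:124814109-124814408, minus strand): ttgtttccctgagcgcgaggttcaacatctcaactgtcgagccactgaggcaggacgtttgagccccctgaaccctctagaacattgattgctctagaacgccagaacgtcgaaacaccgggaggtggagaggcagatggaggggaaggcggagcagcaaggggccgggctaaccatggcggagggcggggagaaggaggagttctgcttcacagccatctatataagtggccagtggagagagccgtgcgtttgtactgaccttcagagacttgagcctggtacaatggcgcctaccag
Ldha (chr7:46845554-46845853, plus strand): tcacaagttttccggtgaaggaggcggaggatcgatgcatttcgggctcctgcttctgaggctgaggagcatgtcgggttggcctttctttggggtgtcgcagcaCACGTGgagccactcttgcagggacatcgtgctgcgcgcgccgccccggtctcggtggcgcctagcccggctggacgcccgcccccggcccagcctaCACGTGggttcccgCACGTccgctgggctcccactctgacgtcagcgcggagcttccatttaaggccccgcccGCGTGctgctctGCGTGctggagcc
The Ldha window held 7 matches, the Hif1a window 3, the Egln3 window 1 and the Tpi1 window 0, where CACGTG counts as a match on each strand. Of the 32 members with a window, 25 held at least 1 match (78.1%). The same letters were found in 43.8% of all 27025 RefSeq windows and in 60.8% of the windows of the 11756 tested genes that had one. A match is only a run of letters, and no match says nothing of the factor.

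The libraries were made from the 3′ ends of messenger RNA, so counts do not grow with transcript length. Setting levels side by side between genes still has limits, given below. Some genes have near-identical copies of their ends, and the counts of the most highly counted genes rose less than the library totals. The counts of genes that averaged 2 to 40 counts rose more than the totals. Each count is a molecule told apart by a unique molecular identifier, and totals were 295535 to 454043 counts per mouse. The floor used here is 3 counts per library, equal to 6.48 to 10.5 normalized CPM, and it covers counting error only. The smooth muscle marker genes (8 of 8 counted) summed to 3855 and 3782 CPM in WT_EE mice 2 and 4, against 2105 to 2681 CPM in the other 7 mice. In the same 2 mice the marker sums of endothelium (6 of 6 counted), neurons and glia (9 of 9) and epithelium (14 of 14) were also the highest of the 9. Endothelial markers summed to 286 and 281 CPM there, against 162 to 229 CPM in the others, and neuronal and glial markers to 502 and 452 CPM, against 227 to 434 CPM. Epithelial markers summed to 5999 and 6222 CPM, against 4597 to 5885 CPM, and the striated muscle markers (6 of 7 counted, Myh4 absent) to 10.8 to 43.3 CPM. WT_EE mice 2 and 4 also had the smallest totals of WT_EE, 295535 and 336967 counts. WT_SE mouse 3, with 299062 counts, had sums of 5885 CPM (epithelium), 2164 (smooth muscle), 162 (endothelium) and 267 (neurons and glia). Whether the marker sums follow cell content or the library total was not tested. Fat markers (7 of 7 counted) were highest in WT_SE mouse 1, at 1143 CPM, against 86.3 to 614 CPM in the others. The colon region markers (6 of 7 counted, Hoxd12 absent) summed to 209 to 514 CPM in WT_SE and 160 to 404 CPM in WT_EE. Of this list, the bile acid transporter Slc10a2 and the posterior patterning gene Hoxb13 varied between pieces of 1 environment. The other genes of the list, Hoxd13, Hoxd11, Hoxa13 and Hoxd10, are not shown singly. Slc10a2 was at 10.5 to 67.9 CPM in WT_SE mice 1 and 5 and WT_EE mice 2, 4 and 5, and at 231 to 372 CPM in the other 4. Hoxb13 was at 153 CPM in WT_SE mouse 5 and at 157 and 74.2 CPM in WT_EE mice 2 and 4, and at 0 in WT_SE mice 2 and 3 and WT_EE mouse 1. Library names end in L3 for WT_SE mice 1 and 3 and in L2 for the other 7 mice, so that this ending and the environment can be told apart only through WT_SE mice 2 and 5.

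Averaged over the 9 mice, levels of the 35 genes ranged from Ldha at a mean of 371 CPM to Pgk1 at 2.65 CPM. The 7 genes at 200 CPM or more were Ldha, Aldoa, Ndrg1, Hk2, Pkm, Gpi1 and Pfkp, in that order. Their ranges over mice overlapped from each to the next, so the order of neighbours is within the spread. Another 5 genes lay between 100 and 200 CPM (Tpi1, Slc2a1, Hif1a, Hk1 and Epas1), 7 between 50 and 100 (Pfkl, Vegfa, Egln1, Egln3, Pdk1, Bnip3 and Bnip3l) and 9 between 20 and 50 (Arnt, Ddit4, Gapdh, Vhl, Eno1, Aldoc, P4ha1, Eno3 and Pfkfb4). The 7 least counted genes were Pfkfb3, Slc16a3, Ldhb, Pfkm, Pgam1, Ankrd37 and Pgk1. Each of these 7 had at least 1 mouse at or under the floor, as did Eno3, and Pgk1 had 0 to 2 counts in all 9 mice.

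**Figure D1:**
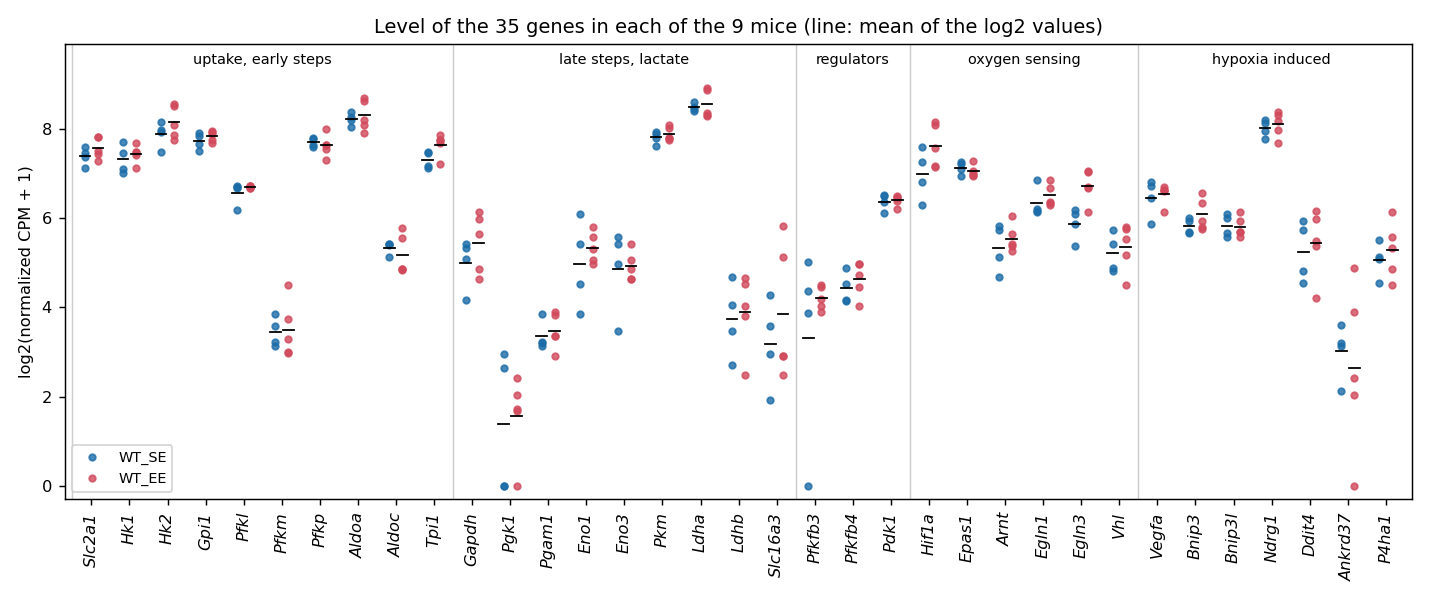
Each point is 1 mouse, WT_SE in blue and WT_EE in red, on a scale of log2(normalized CPM + 1), with the genes on the horizontal axis grouped by role and a line at each group's mean of the log2 values. Ldha, Aldoa and Ndrg1 lie highest, Pgk1 lies at 0 to 2 counts in each mouse, and the groups overlap for all 35 genes.

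The question put to these genes was whether their level in the colon differed between mice of the enriched and the standard environment. Egln3 was higher in WT_EE, by 1.76-fold, and Hif1a and Tpi1 were higher by 1.48-fold and 1.26-fold, each at an unadjusted p under 0.05. None of the 35 passed after adjustment over all genes tested. The other 32 did not pass either test. For none of the 35 were the 2 groups free of overlap, while 2.58% of all 17441 genes tested had groups that did not overlap. The 3 of 35 genes that passed the unadjusted test (8.57%) stand beside 7.65% of all genes tested, and beside 4.31% that passed with a higher level in WT_EE. The share called in either direction is near the background, and nothing is read about the list from 3 genes. At an adjusted p under 0.05, edgeR called 0.0401% of all genes and 0 of the 35. DESeq2 and limma-voom called 0 of the 35 after adjustment and 2 of the 35, Hif1a and Egln3, without it. Of all 17441 genes tested, DESeq2 called 643 and limma-voom 1357 without adjustment. Fewer cells of a type and less RNA per cell cannot be told apart in these pieces of tissue, here or in what follows.

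The fold change was above 1 in WT_EE for 29 of the 35 genes (82.9%), against 51.1% of all genes tested, and the median log2 fold change was 0.13 against 0.01. Among genes with a mean of at least 20 counts, 16 of 19 members (84.2%) were on that side, against 47.0% of 5812 genes. At a mean of at least 80 counts it was 6 of 6 members, against 36.4% of 980 genes. The genes share the same 9 mice and are not independent of each other. Marker lists of cell types lay on either side. Above 1 were 8 of 8 smooth muscle genes, with a median log2 fold change of 0.33 and 3 called higher. So were 8 of 9 neuronal and glial genes (0.36, 1 called higher) and 5 of 6 endothelial genes (0.30, 1 called higher). Of the epithelial genes 9 of 14 were above 1 (0.06, 1 called higher and 1 lower). Only 2 of 8 leukocyte genes (-0.12, 1 called lower) and 1 of 5 colon region genes (-0.69, 1 called lower) were above 1. Fat genes gave 1 of 7 (-0.87, 1 called lower) and erythroid genes 0 of 5 (-0.40, 0 called). The part of these cell types in the members' values was not tested. WT_EE mice 2 and 4 had the highest sums of smooth muscle, neuronal and glial, and endothelial markers and the smallest library totals of WT_EE. Without these 2 mice, 20 of the 35 were above 1 and the median log2 fold change was 0.05, against 0.02 over all genes. With the level of Slc10a2 in the model, 24 of 35 were above 1 and the median was 0.07.

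**Figure D2:**
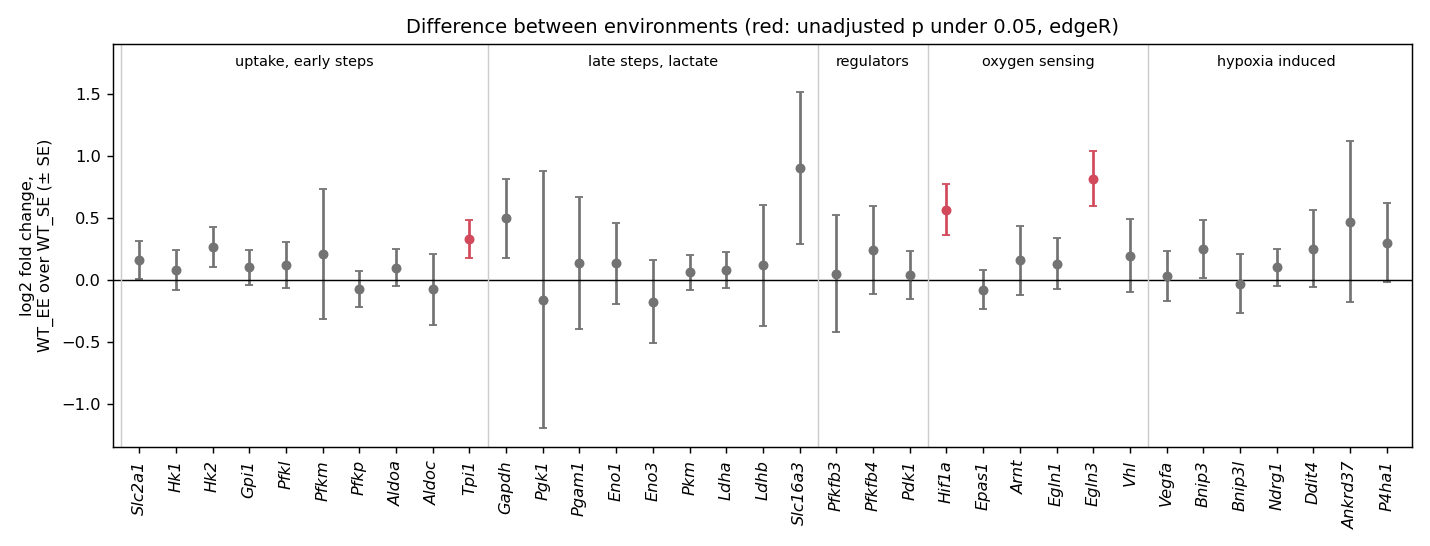
Each point is the log2 fold change of WT_EE over WT_SE for 1 gene, with its standard error as a bar, and red marks an unadjusted p under 0.05 in edgeR's quasi-likelihood test. Egln3, Hif1a and Tpi1 are marked, at 0.82, 0.56 and 0.33, and 29 of the 35 points lie above 0.

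Egln3, ENSMUSG00000035105, on the minus strand of chromosome 12 (54178981 to 54203860), encodes a prolyl hydroxylase of the HIF alpha subunits and is itself a textbook HIF target, with 1 core match in the window printed above. Its normalized level was 57.4, 66.8, 40.6 and 71.1 CPM in WT_SE mice 1, 2, 3 and 5. It was 69.1, 129, 102.7, 133 and 101.8 CPM in WT_EE mice 1 to 5. WT_EE mouse 1 lay within the range of WT_SE, between mice 2 and 5, and the other 4 WT_EE mice lay above all of WT_SE. Each WT_SE level rests on 12 to 26 counts and each WT_EE level on 32 to 47. WT_SE averaged 59.0 ± 13.5 CPM (SD, n = 4), while WT_EE averaged 107 ± 25.7 CPM (SD, n = 5). This is a log2 fold change of 0.82 ± 0.22 (SE), with an unadjusted p of 0.000734 and a Benjamini-Hochberg adjusted p of 0.187 in edgeR. The two-sided exact permutation test of the CPM values over all splits of the 9 mice into 4 and 5 gave p = 0.0238, where 0.00794 is the smallest it can give. Under each of 22 other settings the log2 fold change stayed between 0.61 and 0.96, with an unadjusted p between 0.000114 and 0.0284 and an adjusted p between 0.0318 and 0.996. It was 0.61 without WT_EE mice 2 and 4, with an unadjusted p of 0.0153 in edgeR, and 0.62 among the 7 libraries with the L2 ending, with an unadjusted p of 0.0268.

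Hif1a, ENSMUSG00000021109, on the plus strand of chromosome 12 (73901375 to 73947530), encodes the oxygen-regulated subunit of hypoxia-inducible factor 1. Its level was 151, 111, 77.8 and 191 CPM in WT_SE mice 1, 2, 3 and 5. It was 142, 282, 140, 269 and 190 CPM in WT_EE mice 1 to 5. Only WT_EE mice 2 and 4 lay above all of WT_SE, and the other 3 lay within its range. WT_SE averaged 133 ± 49.2 CPM (SD, n = 4), while WT_EE averaged 205 ± 67.9 CPM (SD, n = 5). This is a log2 fold change of 0.56 ± 0.21 (SE), with an unadjusted p of 0.00951 and an adjusted p of 0.422 in edgeR, and the two-sided exact permutation test gave p = 0.151. WT_EE mice 2 and 4 are also those with the highest smooth muscle marker sums, the lowest Slc10a2 levels and the smallest library totals of WT_EE. The 5 mice with Slc10a2 under 70 CPM had 151 to 282 CPM of Hif1a, and the other 4, from both environments, had 77.8 to 142 CPM. Without WT_EE mice 2 and 4 the log2 fold change was 0.22, with an unadjusted p of 0.272 in edgeR, and with Slc10a2 in the model it was also 0.22, with an unadjusted p of 0.171. It was 0.40 without WT_SE mouse 3, with an unadjusted p of 0.0630, and 0.40 among the 7 libraries with the L2 ending, with an unadjusted p of 0.110. An antisense gene in the same interval, Gm15283, had 16 counts over the 9 mice against 571 of Hif1a.

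Tpi1, ENSMUSG00000023456, on the minus strand of chromosome 6 (124810586 to 124814296), encodes triosephosphate isomerase, which interconverts the small sugar phosphates made by aldolase. Its level was 177, 175, 142 and 139 CPM in WT_SE mice 1, 2, 3 and 5. It was 205, 230, 146, 213 and 213 CPM in WT_EE mice 1 to 5. WT_EE mouse 3 lay within the range of WT_SE and the other 4 above it. WT_SE averaged 159 ± 20.7 CPM (SD, n = 4), while WT_EE averaged 202 ± 32.1 CPM (SD, n = 5). This is a log2 fold change of 0.33 ± 0.16 (SE), with an unadjusted p of 0.0407 and an adjusted p of 0.620 in edgeR, and the two-sided exact permutation test gave p = 0.0714. The call was lost under 14 of 22 other settings, with DESeq2 (an unadjusted p of 0.0848) and limma-voom (an unadjusted p of 0.0638) among them, and the log2 fold change stayed between 0.24 and 0.44. Spsb2, which overlaps Tpi1 on the other strand, had 97 counts over the 9 mice against 613 of Tpi1.

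**Figure D3:**
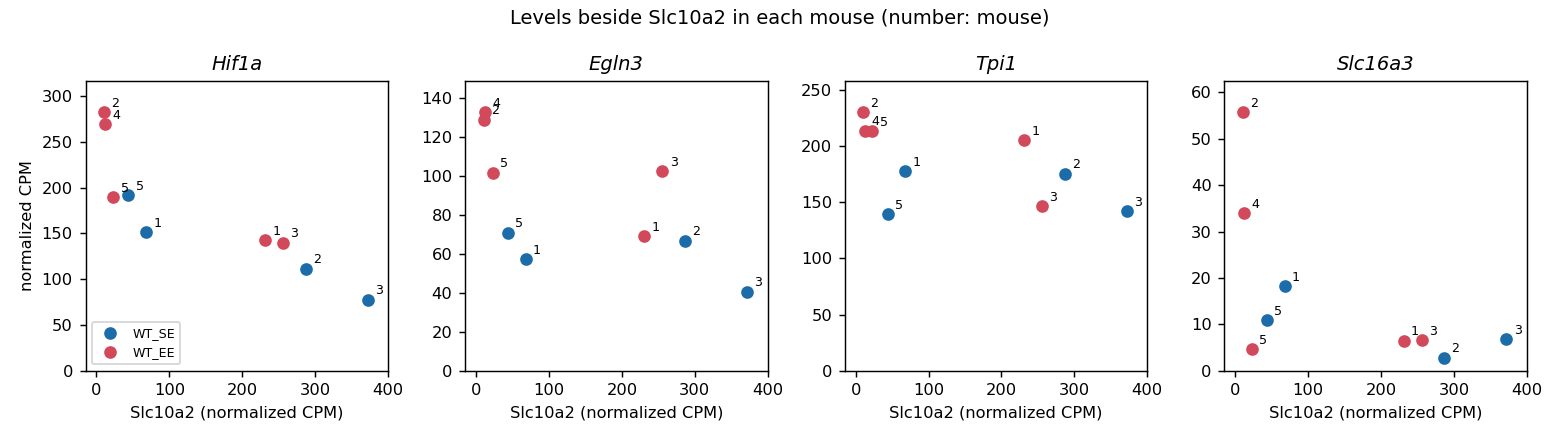
The level of Hif1a, Egln3, Tpi1 and Slc16a3 (vertical axes, normalized CPM) is plotted against that of Slc10a2 (horizontal axes, normalized CPM), with 1 point per mouse marked by its number, WT_SE in blue and WT_EE in red. WT_EE mice 2 and 4 have the lowest Slc10a2, at 10.5 and 12.4 CPM, and the highest levels of Hif1a, Egln3 and Slc16a3.

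Among the genes of glucose uptake and the early steps, Tpi1 alone of the 10 passed the unadjusted test, and 8 of the 10 had a fold change above 1 (median log2 fold change 0.11). The glucose transporter Slc2a1 was at 168 ± 22.8 CPM in WT_SE (SD, n = 4) and 191 ± 31.8 CPM in WT_EE (SD, n = 5). Hexokinase, which traps glucose in the cell, came mainly from Hk2. The Hk2 level was 251, 178, 244 and 282 CPM in WT_SE mice 1, 2, 3 and 5, and 233, 376, 214, 362 and 271 CPM in WT_EE mice 1 to 5. As for Hif1a, WT_EE mice 2 and 4 were the highest 2 and the rest overlapped (log2 fold change 0.27 ± 0.16 SE, exact permutation p = 0.262). Hk1 was at 162 ± 37.5 CPM in WT_SE (SD, n = 4) and 174 ± 24.1 CPM in WT_EE (SD, n = 5). Hk1 made up 40.3% ± 4.24 of the counts of the pair in WT_SE (SD, n = 4) and 37.9% ± 4.41 in WT_EE (SD, n = 5), a difference smaller than the spread between mice.

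Phosphofructokinase, which commits sugar to glycolysis, was counted mainly from the platelet-type gene Pfkp in all 9 mice. Pfkp gave 66.4% ± 3.64 of the counts of the 3 isoenzymes in WT_SE (SD, n = 4) and 63.2% ± 4.79 in WT_EE (SD, n = 5). The liver-type gene Pfkl gave 30.3% ± 3.58 and 33.1% ± 2.89 (SD). The muscle-type gene Pfkm gave 3.29% ± 0.98 and 3.74% ± 2.34 (SD), on 2 to 10 counts per mouse, so this isoenzyme was close to the floor in both environments. The end of Pfkp lies opposite Pitrm1, which had 121 counts over the 9 mice against 674 of Pfkp. Aldolase, which splits the sugar, came from Aldoa, at 264, 292, 331 and 306 CPM in WT_SE mice 1, 2, 3 and 5 and 294, 415, 240, 396 and 271 CPM in WT_EE mice 1 to 5. The second isoenzyme Aldoc made up 11.8% ± 1.87 of the pair in WT_SE (SD, n = 4) and 10.7% ± 4.75 in WT_EE (SD, n = 5). Gpi1, the isomerase that follows hexokinase, was at 212 ± 26.8 and 229 ± 18.9 CPM (SD, n = 4 and 5).

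None of the 9 genes of the later steps and lactate passed the unadjusted test, and 7 of 9 had a fold change above 1 (median log2 fold change 0.12). Ldha, which reduces pyruvate to lactate, was at 337, 387, 358 and 347 CPM in WT_SE mice 1, 2, 3 and 5. It was at 313, 485, 317, 470 and 326 CPM in WT_EE mice 1 to 5. WT_EE mice 2 and 4 lay above all others and WT_EE mice 1, 3 and 5 below all of WT_SE, so that the WT_EE values fell on both sides of WT_SE (log2 fold change 0.08 ± 0.14 SE, exact permutation p = 0.540). Ldhb, the isoenzyme typical of heart, made up 3.81% ± 2.25 of the pair in WT_SE (SD, n = 4) and 3.96% ± 1.88 in WT_EE (SD, n = 5). Lactate dehydrogenase RNA was thus almost all Ldha in both environments. Pkm, the last enzyme of glycolysis, was among the steadiest of these genes, at 196 to 243 CPM in WT_SE and 214 to 269 CPM in WT_EE. The lactate exporter Slc16a3 was at 18.3, 2.78, 6.76 and 10.9 CPM in WT_SE mice 1, 2, 3 and 5. It was at 6.48, 55.8, 6.56, 34.0 and 4.63 CPM in WT_EE mice 1 to 5. Its larger values in WT_EE were again those of mice 2 and 4, with 16 and 11 counts, and the counts of 5 mice did not exceed the floor (log2 fold change 0.90 ± 0.61 SE, exact permutation p = 0.421).

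Several middle enzymes were counted far less than their neighbours in the pathway, and for some of them annotated copies were counted too. Gapdh had 140 counts over the 9 mice (40.4 CPM on average) where Tpi1, the enzyme before it, had 613. On GENCODE release M21, 279 annotated pseudogenes matched 13 of the 35 genes best, over at least 50% of the pseudogene's length and at least 80% identity. Of these, 200 matched Gapdh, at a median identity of 90.8%, and 31 of the 200 had counts, 100 in all. A further 27 matched Ldha, 13 Pkm, 9 Aldoa, 8 Tpi1, 6 Pgk1, 5 Pgam1, 4 Bnip3 and 3 Eno1, and of all these 1 pseudogene of Pkm had 1 count and the rest had 0. Gpi1, Ldhb, Bnip3l and Ankrd37 each had 1 match, with 0 counts. In 3′ libraries it is the end of the transcript that is read. The last 300 bases of Gapdh had a match of at least 97% identity over at least 75 bases, on the same strand, in 75 other genes, and these had 110 counts together. Gapdh counts are therefore uncertain, and how the authors treated reads that match several places is not given in the sources used here. In WT_SE, Gapdh itself was at 32.6 ± 11.1 CPM (SD, n = 4) on 5 to 16 counts. In WT_EE it was at 46.5 ± 20.3 CPM (SD, n = 5) on 9 to 30 counts (exact permutation p = 0.254).

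**Figure D4:**
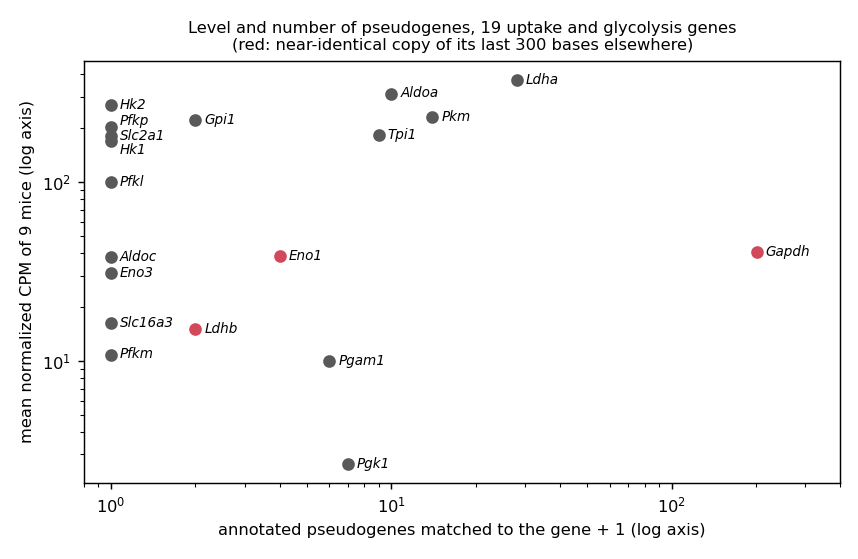
For the 19 uptake and glycolysis genes, the mean normalized CPM over 9 mice (vertical log axis) is plotted against 1 plus the number of annotated pseudogenes matched to the gene (horizontal log axis), with red for genes whose last 300 bases have a near-identical copy elsewhere. Gapdh stands apart with 200 pseudogenes at 40.4 CPM, while Ldha, with 27, is the most highly counted gene.

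Enolase showed the same limit in another form. The end of Eno1 is 99.7% identical over 297 bases to that of Eno1b, which is annotated as protein-coding and had 241 counts against 131 of Eno1. The split between these 2 genes is uncertain. Relative to its mean, their sum varied less between mice than Eno1 alone, which was at 36.0 ± 23.7 CPM in WT_SE (SD, n = 4). It did not vary less than Eno1b alone in WT_SE, at 66.0 ± 7.93 CPM (SD, n = 4). Together Eno1 and Eno1b reached 102 ± 16.6 CPM (SD, n = 4) in WT_SE, from 26 to 45 counts per mouse, and 120 ± 23.1 CPM (SD, n = 5) in WT_EE, from 42 to 51. Eno3, the muscle isoenzyme, had 3 to 17 counts per mouse. It made up 48.1% ± 15.3 of the counts of Eno1 and Eno3 in WT_SE (SD, n = 4) and 42.8% ± 8.93 in WT_EE (SD, n = 5), shares that leave Eno1b out. The end of Ldhb has a near-identical copy in Gm5514, which had 0 counts. Pgk1 and Pgam1, with 9 and 33 counts over all 9 mice, had no copy of their last 300 bases under these limits. Only the end of the longest transcript was searched. Pseudogenes matched Pgk1 at 100% identity over 1252 bases (Gm5537) and 1255 bases (Pgk1-rs7), and Pgam1 over 765 bases (Pgam1-ps2), each with 0 counts. Whether these copies lower the counts of Pgk1 and Pgam1 was not tested. No difference between environments was detectable for Pgk1 or Pgam1 at this depth. Adding the counts of the matched pseudogenes to their parent genes left the same 3 of 35 genes called. This step could not change the counts of those 3. The 8 pseudogenes matched to Tpi1 had 0 counts, and Hif1a and Egln3 had 0 matched pseudogenes.

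Among the regulators of flow, all 3 had a fold change above 1 and none passed the test. Pdk1, which inhibits pyruvate dehydrogenase, was at 82.3 ± 10.3 CPM in WT_SE (SD, n = 4) and 83.9 ± 6.32 CPM in WT_EE (SD, n = 5), a log2 fold change of 0.04 ± 0.19 (SE). Pfkfb3 and Pfkfb4, which make and break the activator of phosphofructokinase, had 0 to 12 and 5 to 14 counts per mouse.

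Of the 6 oxygen-sensing genes, Hif1a and Egln3 passed the unadjusted test and 5 had a fold change above 1 (median log2 fold change 0.18). Epas1, the sister of Hif1a that is prominent in endothelium, was at 123, 136, 152 and 148 CPM in WT_SE mice 1, 2, 3 and 5, and at 132, 122, 127, 155 and 125 CPM in WT_EE mice 1 to 5. These groups overlapped throughout (log2 fold change -0.08 ± 0.16 SE, exact permutation p = 0.381). Epas1 made up 52.4% ± 10.5 of the counts of the alpha subunit pair in WT_SE (SD, n = 4) and 40.4% ± 7.58 in WT_EE (SD, n = 5), with overlapping ranges of 43.5 to 66.2% and 30.2 to 48.0%. Egln1, the main oxygen sensor, was at 73.1, 69.6, 71.0 and 115 CPM in WT_SE mice 1, 2, 3 and 5, and at 77.7, 115, 80.9, 80.4 and 102 CPM in WT_EE mice 1 to 5. It did not pass the test (log2 fold change 0.13 ± 0.21 SE, exact permutation p = 0.460). Egln3 made up 41.9% ± 5.73 of the counts of the 2 hydroxylases in WT_SE (SD, n = 4) and 53.6% ± 5.87 in WT_EE (SD, n = 5), and the ranges, 36.4 to 49.0% and 47.1 to 62.3%, overlapped. Arnt, the shared partner, was at 41.6 ± 14.8 and 46.5 ± 11.1 CPM, and Vhl at 37.4 ± 11.7 and 41.9 ± 13.8 CPM (SD, n = 4 and 5).

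None of the 7 genes induced by hypoxia passed the test, and 6 of 7 had a fold change above 1 (median log2 fold change 0.25). Ndrg1, a stress-responsive gene of differentiated epithelium, was the most highly counted, at 258 ± 34.4 CPM in WT_SE (SD, n = 4) and 279 ± 51.7 CPM in WT_EE (SD, n = 5). Vegfa, the main growth factor of blood vessels, was at 89.7 ± 24.0 and 92.9 ± 13.3 CPM (SD, n = 4 and 5), with a log2 fold change of 0.03 ± 0.20 (SE). Bnip3 and Bnip3l mark mitochondria for removal. Bnip3 was at 60.0, 50.1, 50.7 and 62.9 CPM in WT_SE mice 1, 2, 3 and 5, and at 60.4, 94.1, 54.6, 80.4 and 53.2 CPM in WT_EE mice 1 to 5. Once more the values above WT_SE were those of WT_EE mice 2 and 4. Bnip3l ranged from 46.5 to 67.6 CPM in WT_SE and from 46.4 to 69.7 CPM in WT_EE and made up 50.2% ± 6.01 and 45.2% ± 5.60 of the counts of the pair. The mTORC1 inhibitor Ddit4 ranged from 22.3 to 60.0 CPM in WT_SE and from 17.4 to 69.9 CPM in WT_EE, and the collagen hydroxylase subunit P4ha1 from 22.3 to 44.4 and from 21.6 to 69.4 CPM. Ankrd37 was at or under the floor in 6 of 9 mice.

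Beyond the 35, 71 other genes of these pathways were listed and 67 were tested, of which 5 were higher and 3 lower in WT_EE at an unadjusted p under 0.05. These are 11.9% called and 7.46% higher, beside 7.65% and 4.31% of all genes tested. Of 28 tested genes of the hypoxia response, 4 were higher and 1 lower, and 21 had a fold change above 1 (75%, against 51.1% of all genes tested). The 5 calls are 17.9% of the list and the 4 higher ones 14.3%, with the same shares of all genes beside them. Ak4, a mitochondrial adenylate kinase, had the smallest p. It was at 23.5, 36.2, 23.7 and 32.8 CPM in WT_SE mice 1, 2, 3 and 5, and at 47.5, 76.7, 63.4, 86.6 and 57.8 CPM in WT_EE mice 1 to 5, and the groups did not overlap. The log2 fold change was 1.15 ± 0.27 (SE), with an unadjusted p of 0.000149 and an adjusted p of 0.0931 in edgeR and an exact permutation p of 0.0159 (two-sided). The call was kept under all 22 other settings. Ppp1r3c, which brings a phosphatase to glycogen, was at 5.22, 5.57, 3.38 and 13.7 CPM in WT_SE mice 1, 2, 3 and 5, with 1 to 5 counts each. WT_EE mouse 1, on 6 counts, lay within the range of WT_SE, below WT_SE mouse 5, so the groups overlapped. Ppp1r3c was at 48.8, 24.0, 61.9 and 20.8 CPM in WT_EE mice 2 to 5, on 9 to 20 counts. Its log2 fold change was 2.10 ± 0.51 (SE), with an unadjusted p of 0.000196 and an adjusted p of 0.113 in edgeR, and WT_EE mice 2 and 4 were again the highest. The collagen lysyl hydroxylase Plod2 was higher by a log2 fold change of 0.60 ± 0.26 (SE), with an unadjusted p of 0.0272 and an adjusted p of 0.555 in edgeR. Its call was lost in 9 of 22 other settings, and the value was 0.38 without WT_EE mice 2 and 4, with an unadjusted p of 0.189. The remaining 2 calls, Nfil3 (higher) and Hmox1 (lower), rest on 0 to 5 counts per mouse and carry no fold change here.

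Of 14 other tested genes of glycolysis, 0 were higher and 1 was lower, Galm, which converts sugars between their ring forms (log2 fold change -0.60 ± 0.28 SE, with an unadjusted p of 0.0406 and an adjusted p of 0.620 in edgeR). Its call was lost in 14 of 22 other settings. Of 13 genes of pyruvate entry and use, Mpc2, a subunit of the mitochondrial pyruvate carrier, was lower. It was at 240, 181, 203 and 189 CPM in WT_SE mice 1, 2, 3 and 5 and at 151, 115, 155, 136 and 174 CPM in WT_EE mice 1 to 5, so that the groups did not overlap. Its log2 fold change was -0.46 ± 0.15 (SE), with an unadjusted p of 0.00432 and an adjusted p of 0.329 in edgeR. Pyruvate carboxylase, Pcx, was higher by 0.84 ± 0.36 (SE) on the log2 scale, with an unadjusted p of 0.0260 and an adjusted p of 0.549 in edgeR, and WT_EE mice 2 and 4 held its largest values, 73.2 and 64.9 CPM. The call was lost in 9 of 22 other settings, and without those 2 mice the value was 0.26, with an unadjusted p of 0.496. None of 12 genes of gluconeogenesis and the pentose phosphate route passed. In contrast to the hypoxia genes, 5 of 14, 4 of 13 and 4 of 12 genes of these 3 lists had a fold change above 1. The difference between the lists was not tested.

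For the most highly counted genes, counts rose less than the library totals did. Ldha had 106 counts in the WT_SE library of 299062 and 139 in the WT_EE library of 295535, but only 145 in that of 454043. Across the 9 libraries, a slope of 1 between the log of the counts and the log of the total means proportion. The slope of the summed counts was 1.33 for the 7598 genes that averaged 2 to 20 counts, 15 members among them. It was 1.30 for the 2576 genes at 20 to 40, with 7 members, so counts of these genes rose more than the totals. The slope was 1.04 for the 2256 genes at 40 to 80, 0.55 for the 856 at 80 to 120, and 0.56 for the 124 at 120 or more. Among single members it was 0.32 for Ldha, 0.22 for Aldoa, 0.43 for Hk2 and 0.95 for Pkm. Egln3, which averaged 31.9 counts, had a slope of 1.29, near that of the genes at 20 to 40. The totals of WT_EE mice 2 and 4 were 295535 and 336967 counts, the smallest of their group, and that of WT_SE mouse 3 was 299062. With the environment as the only term, 1334 of the 17441 genes tested and 3 of the 35 were called without adjustment. With the library total in the model these were 1717 and 6. The 6 were Hk2, Aldoa, Tpi1, Slc16a3, Hif1a and Egln3, each higher in WT_EE. The log2 fold change of Hif1a was 0.67 with the library total in the model and 0.22 with Slc10a2 in the model.

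**Figure D5:**
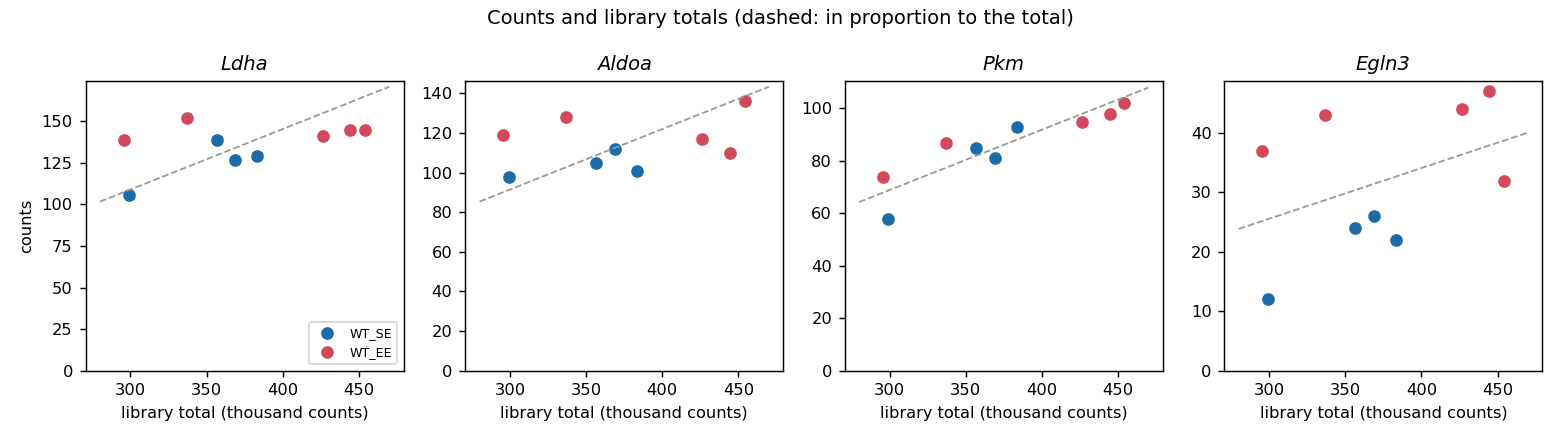
Counts of Ldha, Aldoa, Pkm and Egln3 (vertical axes) are plotted against the library total (horizontal axes, in units of 1000 counts), 1 point per mouse, with a dashed line for counts in proportion to the total. Ldha and Aldoa are flatter than the line, Pkm follows it, and the WT_EE points of Egln3 lie at 32 to 47 counts above the WT_SE points at 12 to 26.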

How the data were processed

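Colon RNA of 9 wild-type mice (4 WT_SE, 5 WT_EE) was analysed, and the transgenic groups were not analysed here. The authors prepared QuantSeq 3′ libraries with unique molecular identifiers and deposited whole-number molecule counts per gene and mouse, with no normalization. The submitters' processing notes name fastp 0.20.0, STAR 2.7.0f, featureCounts 1.6.0, UMI-tools and GRCm38.p6, and the methods give another STAR version. A gene without a row in a mouse's counts was taken as 0.

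Counts were fitted with edgeR 4.0.16 (R 4.3.3) by the quasi-likelihood F test, with TMM normalization and the environment as the only term, over the 17441 genes that reached 4 CPM in 1 library or more. Benjamini-Hochberg adjusted p-values are over all of these genes. The methods give a limit of 4 CPM and a p of up to 0.05. Totals of 295535 to 454043 counts bound the precision. The common biological coefficient of variation was 15.1%, and pairs of mice of 1 environment differed by a chi-square per degree of freedom of 1.19 to 2.55, which is more than sampling noise for every pair. The fit was tested on simulated data. Symbols and positions came from GENCODE M21, 22248 of 22262 identifiers having a symbol. Pseudogenes and transcript ends were matched with blastn 2.17.0, and promoters came from RefSeq (32 of 35 matched, the first window listed per gene).

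The members and lists were chosen with earlier results of these data known. All members are accounted for. Values in every mouse are given for members with an unadjusted p under 0.05 and for some others chosen after their values were seen (Slc16a3). Among the paralogs they are also given for Hk2, Aldoa, Ldha, Epas1, Egln1 and Bnip3. The other paralogs are given as means, shares, ranges or counts. Other pathway genes are named where p was under 0.05. Slc10a2 and Hoxb13 were also chosen after their values were seen. Alternatives were other filters, normalizations (RLE, upper quartile) and tests (DESeq2 1.42.0, limma-voom 3.58.1), a block for mouse number, a term for the library-name ending (or L2 libraries only), added pseudogene counts, and each mouse left out. The models without WT_EE mice 2 and 4, with Slc10a2 and with the library total were added after seeing the data.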

Additional observations from a re-analysis of the deposited data

Results flagged for a closer look

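In 5 of 70 groups (35 genes in 2 environments), 1 mouse stood apart from the rest of its group by Dixon's test, where chance alone would give 3.5. Pfkl was at 71.1 CPM in WT_SE mouse 5, against 102 to 105 CPM in the other 3 WT_SE mice. Egln1 was at 115 CPM in the same mouse, against 69.6 to 73.1 CPM. Aldoc was at 33.8 CPM in WT_SE mouse 3, on 10 counts, against 41.0 to 41.8 CPM. Pgam1 was at 13.5 CPM in WT_SE mouse 3, but this is 4 counts against 3 counts in each of the other 3 WT_SE mice, and the floor is 3 counts, so nothing is read from it. Vegfa was at 69.4 CPM in WT_EE mouse 5, against 97.2 to 102 CPM in the other 4 WT_EE mice. None of the 5 genes passed the test between environments.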

How the results depend on the processing

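For Egln3, Hif1a, Tpi1, Ak4, Ppp1r3c, Plod2, Pcx, Mpc2 and Galm, no direction turned under the alternatives run (22, or 21 for Ppp1r3c). Over all genes, 1334 passed the unadjusted test, and 804 with filterByExpr, 643 with DESeq2 and 1357 with limma-voom. The count was 688 with the library-name ending in the model and 680 among L2 libraries only. It was 1304 without WT_EE mice 2 and 4, 1161 with Slc10a2 and 1717 with the library total in the model. With each mouse left out this count was 899 to 1581. After adjustment 7 genes passed, and 143 without a filter on low counts, 0 with filterByExpr, DESeq2, limma-voom, the ending or L2 libraries only, 3 without WT_EE mice 2 and 4, 2 with Slc10a2 and 38 with the library total in the model. With each mouse left out it was 0 (without WT_SE mouse 3) to 48 (without WT_EE mouse 1). Of the 35 genes 3 passed the unadjusted test, and 1 (Egln3) with the ending, with L2 libraries only, without WT_EE mice 2 and 4 or with Slc10a2, and 6 with the library total. With each mouse left out it was 1 (without WT_SE mouse 3) to 5 (without WT_EE mouse 3). After adjustment 0 of the 35 passed, and 1 (Egln3, adjusted p = 0.0318 in edgeR) without a filter. With each mouse left out it was 0 to 1, Egln3 passing without WT_EE mouse 1 (adjusted p = 0.0454 in edgeR). Hif1a lost its call in 5 alternatives, Tpi1 and Galm in 14 each, Pcx and Plod2 in 9 each and Mpc2 in 2, the cause of which was not tested, and Egln3, Ak4 and Ppp1r3c kept theirs wherever they were tested. Upper quartile normalization put the median of all genes at -0.04 and left 27 of the 35 genes above 1. Ppp1r3c was not kept by filterByExpr.

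Mice of the 2 environments share only a number. Over 8493 genes the deviations of same-numbered mice correlated at -0.02, 0.05, 0.11 and 0.13, and 0 of 4 WT_SE mice matched best with their own number. With the mouse number as a block, 70 genes passed after adjustment, 1170 without it, and 3 of the 35 (Gapdh, Hif1a and Egln3). Depth limits the 8 genes with a mouse at or under 3 counts.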
